A study of Mus musculus with 13 samples.

Results

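Hippocampi of 15-month-old mice were compared between 3 mice homozygous for the Tmem184b gene-trap allele Tmem184bGt(IST10294F4) (TMEM184B mutant, GT/GT) and 3 wild type C57BL/6 mice. These 6 bulk RNA libraries are 6 of the 13 in the series, and they were taken as the libraries that the sample labels give an age of 15 months. The other 7 came from mice aged 5 months and enter only where genotype effects are set against each other between ages. The insertion is carried in every cell from conception and lies on the C57BL/6 background, so no tissue-specific driver or treatment separates the groups. Total RNA was taken from whole dissected hippocampus, and the values are normalized counts per gene, in which the sums over genes run from 29747718 to 32383546 per library and do not measure sequencing depth. Each label names a sample and not its litter or batch, so p-values measure the spread between these 6 samples.

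TMEM184B is a multi-pass membrane protein found in neurons, where it has been linked to endosomal traffic and to the upkeep of synapses. The hippocampus holds layers of excitatory neurons and scattered interneurons, served by astrocytes, microglia and the oligodendrocytes that wrap axons in myelin. The GC content of a gene and the length of its transcript can shift its read count from library to library without a change in the tissue, so each group of genes is described as deposited and again after a correction of each library for both. In bulk tissue, fewer cells of a type and less RNA per cell cannot be told apart.

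Some features of single libraries come before the results. In mutant 3, all 11 choroid plexus markers lay above every wild type, led by the thyroxine carrier Ttr at 26552 normalized counts against 332 to 1473 in the other 5 libraries, and so did all 5 blood markers, with the beta-globin Hbb-bs at 63138 against 4588 to 11476. This library alone carried the first principal component, which held 45.5% of the variance of the 500 most variable genes, at a score of 41.5 against -13.7 to -2.86 in the others. In mutant 1, the pituitary hormones growth hormone (Gh) and prolactin (Prl) reached 516.3 and 1968 against at most 20.5 and 19.4 elsewhere, a pair chosen after their values were seen. Xist, the RNA that coats the inactive X chromosome, was between 11204 and 12241 in the wild types, 7050 in mutant 1 and under 18 in mutants 2 and 3. The Y-linked helicase gene Ddx3y reached 716.3 and 700.7 in mutants 2 and 3 and at most 4.065 in the other 4 libraries. Genotype is therefore partly mixed with sex, and the part of sex in the results was not tested. Of the 935 genes called below, 35 were among 535 tested on the X chromosome and 0 among 4 tested on the Y. Over all genes tested, 6.02% were called.

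Tmem184b itself was read first, since it checks the labels. The gene lies on the minus strand of chromosome 15 at 79360684 to 79403569 (GRCm38). Its normalized counts were 2346, 2346 and 2413 in the wild types and 36.6, 29.4 and 57.8 in the mutants. The loss was -5.86 ± 0.21 (log2, SE), with an adjusted p of 2.031e-06 (limma, Benjamini-Hochberg), and every library went with its label.

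Of 15541 genes that averaged 10 or more normalized counts, 935 passed an adjusted p of 0.05 (6.02%), of which 309 were higher in mutants (1.99%) and 626 lower (4.03%). The median absolute change of these genes was 0.42 on the log2 scale, and 59 changed by more than 1. Mutant and wild type values did not overlap in 5303 genes, or 34.1% of those tested. Without any one wild type 1 to 3 genes passed, and without mutant 1 11 did, while 1526 passed without mutant 2 and 1515 without mutant 3. The signs of the 124 called genes among those named by rule did not change in any of these 6 fits. Apart from sex-linked transcripts, 0 members of the gene lists below passed as deposited without a wild type or without mutant 1 (limma). Each count of list members as deposited therefore needs those 4 libraries to pass the adjusted threshold. In these 4 fits an unadjusted p under 0.05 was still met by 3318 to 3401 genes, beside 4476 with all 6 libraries. Of 35 list medians, 31 to 35 shifted by less than the SD between libraries of a genotype.

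The change followed base composition and length closely. Over 15392 genes with a gene model, Spearman's rho of the log2 fold change with GC content was 0.49 and with transcript length -0.42, a description over genes that share the same 6 libraries. Among the 1540 genes with the lowest GC content 107 fell and 6 rose, and among the 1540 with the highest 4 fell and 148 rose. Among the 1539 longest, of 6817 bases and over, 339 fell and 5 rose. The libraries did not share 1 slope. Deviations from the gene means rose with GC content in mutants 1 and 3 (rho 0.39 and 0.36) and fell in the wild types (-0.27 to -0.41), while mutant 2 was nearly flat (0.057). With length, deviations fell in all 3 mutants (rho -0.38, -0.28 and -0.20 in mutants 1, 2 and 3) and rose in the wild types (0.20 to 0.37).

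**Figure D1:**
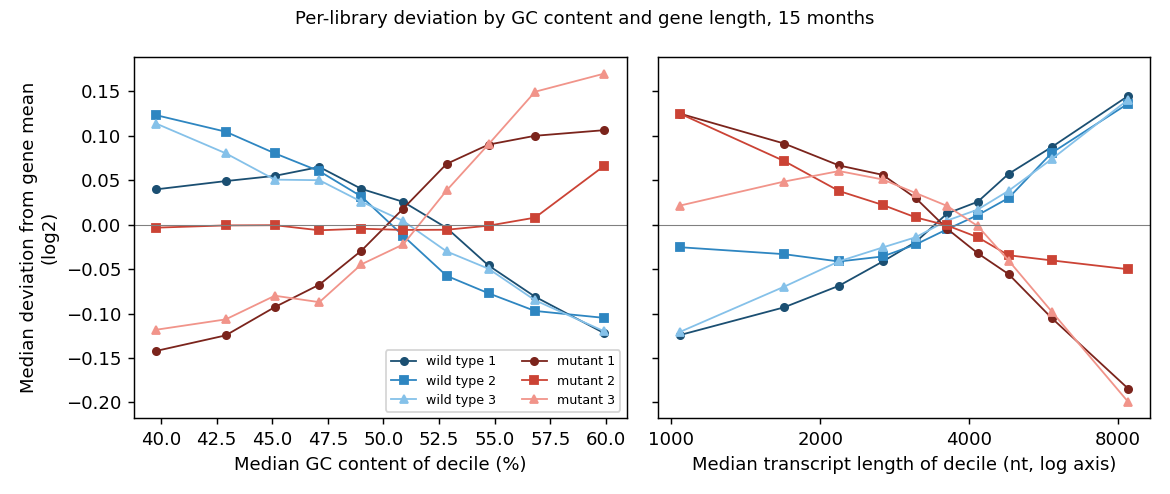
Median deviation of genes from their mean over the 6 libraries (log2) in 10 bins of GC content (left, percent) and of transcript length (right, bases, log axis); each line is 1 library. Mutants 1 and 3 climb with GC content and drop with length, the 3 wild types do the reverse, and mutant 2 lies close to 0 over most of the GC range.

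After a smooth surface of GC content and length was subtracted from each library, rho fell to 0.05 for GC content and -0.04 for length, and 50 genes passed (0.325%), 19 higher (0.123%) and 31 lower (0.201%). All 31 lower genes and 7 of the 19 higher ones had also passed as deposited, with the same sign in each of the 38. Another 12 higher genes passed only after correction. Such a surface also takes away a true change that follows GC content or length, so the size of the trend in the tissue and in the libraries cannot be told apart. The unadjusted p was under 0.05 for 4476 of 15541 genes as deposited and 2184 of 15392 after correction. Counts of list members below stand beside these shares, or, for calls as deposited, beside 1.99% of all genes higher and 4.03% lower.

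**Figure D2:**
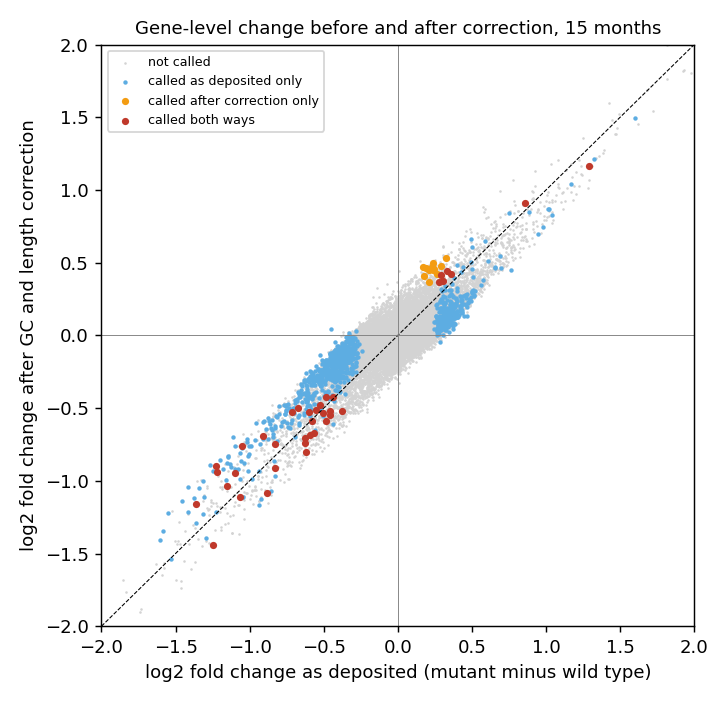
Log2 fold change of 15359 genes as deposited (horizontal) and after the correction (vertical), with a dashed line of equality; 33 genes beyond the axes, among them Tmem184b, are not drawn. Genes called as deposited only (blue) lie nearer to 0 on the vertical axis than on the horizontal one, and the genes called both ways (red) are mostly below 0.

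Some genes of mature oligodendrocytes and myelin fell in mutants, both as deposited and after correction. As deposited, 6 of 12 markers passed, all lower, with a median log2 fold change of -0.52 beside 0.02 over all genes. After correction 5 passed, again all lower, with a median of -0.50 beside -0.002. All 12 had a negative change both ways, and mutant and wild type values were apart in 10. Relative to the wild type mean, the median of the list was -0.47, -0.41 and -0.57 in mutants 1, 2 and 3, against -0.05 to 0.08 in single wild types. Mutant 1, the mutant library with Xist, lay below all wild types in 10 of the 12 genes, and mutants 2 and 3, with Ddx3y, each in 12. The part of sex in this was not tested. The 12 markers of thalamus and striatum, neighbours of the hippocampus in dissection, were also at negative corrected medians in the mutants (-0.10, -0.23 and -0.26), and their part in the oligodendrocyte result was not tested.

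Mobp, which encodes a myelin protein that packs the membrane layers, read 30046, 23873 and 29662 against 19426, 18468 and 16185. Its change of -0.62 ± 0.11 (adjusted p = 0.030) grew to -0.70 ± 0.10 after correction (adjusted p = 0.036).

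Mog, a glycoprotein of the outer face of the sheath, read 1837, 1751 and 1888 in the wild types against 1343, 1335 and 1045 in the mutants. It changed by -0.56 ± 0.10, and by -0.67 ± 0.10 after correction (adjusted p 0.032 and 0.037). Mal, a proteolipid of myelin membrane traffic, went from 4769, 4302 and 4660 to 2914, 3005 and 3284. These values are apart by over 1000 counts, with changes of -0.58 ± 0.07 and -0.59 ± 0.07 (adjusted p 0.025 and 0.018). Cldn11, the claudin of the tight junctions between myelin layers, read 3953, 3842 and 4140 against 2821, 2739 and 2984. Its change of -0.48 ± 0.07 became -0.59 ± 0.06 (adjusted p 0.025 and 0.018). Ermn, a cytoskeletal protein of late oligodendrocytes with a GC content of 38.0%, passed only as deposited, at -0.58 ± 0.10 (adjusted p = 0.030) against -0.44 ± 0.09 after correction (adjusted p = 0.070).

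The members that did not pass were Mag, Cnp, Ugt8a, Opalin, Mbp and Olig1. Ugt8a, the enzyme of galactocerebroside synthesis, had the largest change of the list as deposited, -0.72 ± 0.19 (adjusted p = 0.054). Mbp, which encodes the basic protein that compacts myelin, read 106042, 94131 and 107776 in the wild types against 96920, 92423 and 79208 in the mutants, which overlap (adjusted p = 0.22). Olig1, a transcription factor of the whole oligodendrocyte lineage, was at -0.07 ± 0.06 as deposited (adjusted p = 0.51) and -0.30 ± 0.06 after correction (adjusted p = 0.065). Of 6 markers of oligodendrocyte precursors, Pdgfra, the growth factor receptor that defines them, passed as deposited at -0.54 ± 0.10 (adjusted p = 0.030) and not after correction (adjusted p = 0.16). The median of those 6 was 0.04 as deposited.

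Other genes known from oligodendrocytes stood among the 31 that were lower after correction. Cryab, the small heat shock protein alpha-B-crystallin, read 2884, 3040 and 3179 against 1904, 2250 and 1795, a corrected change of -0.80 ± 0.08 (adjusted p = 0.015). Galnt6, an enzyme that starts O-linked glycosylation, changed by -0.74 ± 0.09 after correction (adjusted p = 0.024). Another 5 were picked out after their values were seen, and they are Trf (transferrin, -0.55), Fa2h (the fatty acid hydroxylase of myelin lipids, -0.52), Tspan2 (a myelin tetraspanin, -0.50), Adamts4 (a matrix protease, -0.68) and Gatm (an enzyme of creatine synthesis, -0.42), all after correction. Of these 5, Tspan2 alone also passed with the other gene models described below. In 4 of the 6 fits that left out 1 library (any wild type, or mutant 1) none of the 12 markers passed as deposited; their median stayed between -0.55 and -0.47. The median of the list at 5 months was -0.08, and -0.10 after correction. Limma's difference between ages did not pass for any of the 6 called markers, with adjusted p between 0.15 and 0.62. Neither a fall particular to 15 months nor an equal fall at both ages was shown.

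**Figure D3:**
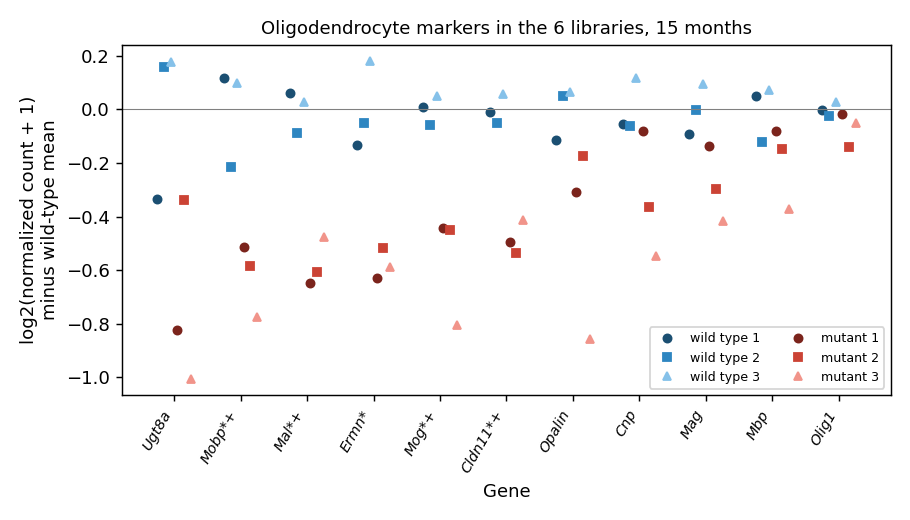
Log2(normalized count + 1) minus the wild type mean for 11 of the 12 oligodendrocyte markers, 1 point per library; an asterisk marks an adjusted p under 0.05 as deposited and a plus sign one after correction. All 3 mutants lie below 0 for each of these 11 genes, and below every wild type for 9.

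Among the other genes that were lower after correction, several act in signalling. Ppm1l, a PP2C-family phosphatase of stress-kinase and ceramide pathways, read 868.8, 910.0 and 879.2 in the wild types against 425.9, 430.0 and 385.6 in the mutants, so each mutant was under the lowest wild type by over 400 counts. Its change was -1.10 ± 0.09 as deposited (adjusted p = 0.0031) and -0.94 ± 0.09 after correction (adjusted p = 0.015). Hipk2, a nuclear kinase of stress and p53 signalling, read 729.4, 612.8 and 705.5 against 299.7, 356.1 and 267.3, with a corrected change of -1.03 ± 0.12 (adjusted p = 0.021). Epha6, an ephrin receptor of axon guidance, changed by -0.75 ± 0.10 (adjusted p = 0.036).

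Mtmr9, a catalytically inactive myotubularin that regulates phosphoinositide phosphatases, read 769.3, 815.3 and 882.4 against 493.7, 486.0 and 410.6. Its corrected change was -0.91 ± 0.10 (adjusted p = 0.018). Frrs1l, needed to build AMPA-type glutamate receptors, read 2300, 2358 and 2551 against 991.1, 1430 and 766.4, with a corrected change of -0.94 ± 0.15 (adjusted p = 0.045). Zbed6, a transposon-derived repressor, changed by -1.16 ± 0.18 (adjusted p = 0.042) and Klhl34, of the kelch family, by -1.09 ± 0.17 (adjusted p = 0.042). Zbed6 lies inside another gene, so its reads may be shared with that gene's unspliced RNA. The lincRNA B230209E15Rik changed by -1.11 ± 0.18 after correction (adjusted p = 0.045), and Gm3893, a predicted gene that may have near-identical copies, by -1.44 ± 0.19 (adjusted p = 0.030).

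Some long noncoding RNAs were lower in mutants. Their list was written for RNAs of the nucleus, and where its members lie in the cell was not measured. Of 15, 5 fell as deposited and 2 after correction, with medians of -0.16 and 0.02. Malat1, an abundant RNA of nuclear speckles (chromosome 19, 5795690 to 5802672), read 22951, 18285 and 20869 in the wild types against 9801, 11760 and 8515 in the mutants. Its change was -1.05 ± 0.12 (adjusted p = 0.025), and -0.76 ± 0.10 after correction (adjusted p = 0.031). Oip5os1, also called Cyrano, a regulator of microRNA turnover, read 730.8, 737.8 and 744.6 against 317.4, 391.5 and 251.7, or -1.22 ± 0.15 as deposited and -0.90 ± 0.12 corrected (adjusted p 0.025 and 0.031).

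Snhg14, the transcript that runs antisense to Ube3a, changed by -1.02 ± 0.17 (adjusted p = 0.028) and missed the threshold after correction at -0.71 ± 0.14 (adjusted p = 0.065). Neat1, the scaffold of paraspeckles, changed by -0.43 ± 0.09 (adjusted p = 0.039) and by -0.17 ± 0.11 after correction (adjusted p = 0.54). Kcnq1ot1, whose longest transcript has 93092 bases, was lower as deposited (-0.45 ± 0.11, adjusted p = 0.044) and at 0.05 ± 0.08 after correction. Whether reads were counted by strand is not stated in the sources used here, so reads of antisense pairs such as Snhg14 with Ube3a or Tsix with Xist cannot be told apart. At 5 months the change of Malat1 was 0.55 and did not pass (adjusted p = 0.13), and the genotype effects at both ages differed by -1.60 (adjusted p = 0.013).

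Some immediate early genes, which neurons switch on within minutes of activity, rose in mutants. As deposited, 11 of 32 passed, all higher, with a median of 0.48. After correction 1 passed, Npas4, while the median was 0.33. An unadjusted p under 0.05 was met by 15 after correction, all higher. The 3 mutants were unequal, with medians of 0.38, 0.23 and 0.99 above the wild type mean in mutants 1, 2 and 3. Mutant 3, the library with choroid plexus and blood transcripts, was above every wild type in 26 of the 32. Without it the median was 0.31 and 12 rose and 2 fell as deposited; after correction, 4 rose and 1 fell. The part of the choroid plexus and blood transcripts in this was not tested.

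Npas4, a transcription factor induced by neuronal activity (chromosome 19, 4984355 to 4990316), read 272.7, 242.7 and 353.4 in the wild types against 878.8, 560.1 and 696.5 in the mutants. Mutant 1 was the highest here, and the groups were well apart. The change was 1.29 ± 0.18 (adjusted p = 0.026), 1.17 ± 0.17 after correction (adjusted p = 0.038) and 1.29 ± 0.19 without mutant 3 (adjusted p = 0.0072). Fos, a component of the AP-1 factor, read 144.3, 141.2 and 140.9 against 397.3, 242.1 and 845.9. Its change of 1.60 ± 0.36 (adjusted p = 0.040) was 1.12 ± 0.20 without mutant 3 (adjusted p = 0.014), and it did not pass after correction (adjusted p = 0.11).

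Arc, an activity-driven regulator of AMPA receptor endocytosis, read 3351, 2881 and 2887 in the wild types against 4980, 4571 and 10692 in the mutants. Here mutant 3 was more than double the other mutants, and the change went from 1.04 ± 0.26 to 0.65 ± 0.08 without it. Dusp1, a phosphatase that shuts off MAP kinases, read 473.8, 517.8 and 413.8 against 1117, 652.9 and 1597, or 1.17 ± 0.26 (adjusted p = 0.041). Junb, another AP-1 member, read 2265, 2266 and 2566 against 4241, 3802 and 5882, or 0.95 ± 0.14 (adjusted p = 0.027), and 0.70 ± 0.14 after correction (adjusted p = 0.080).

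Egr4, a zinc finger factor with a GC content of 68.2%, changed by 0.76 ± 0.12 (adjusted p = 0.027) and by 0.45 ± 0.10 after correction (adjusted p = 0.10). The early response gene Ier2 was at 0.98 ± 0.24 (adjusted p = 0.048). Gadd45b and Gadd45g, which act in stress signalling and DNA demethylation, were at 0.50 ± 0.11 and 0.42 ± 0.09, and Jun and Jund at 0.40 ± 0.08 and 0.37 ± 0.07, all under the threshold as deposited. Jund, with a GC content of 67.2%, was at 0.08 ± 0.05 after correction. Egr2 had the largest change, 1.82 ± 0.57, and did not pass (adjusted p = 0.077), with 16.9, 24.3 and 16.4 against 58.8, 29.3 and 188.5.

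At 5 months the median of these 32 genes was -0.41. For Fos the genotype effect at 15 months exceeded that at 5 months by 3.27 (adjusted p = 0.029), for Npas4 by 2.01 (adjusted p = 0.0055) and for Gadd45g by 1.48 (adjusted p = 2.184e-04), against a background of 1.75% of 15340 genes called in that comparison.

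**Figure D4:**
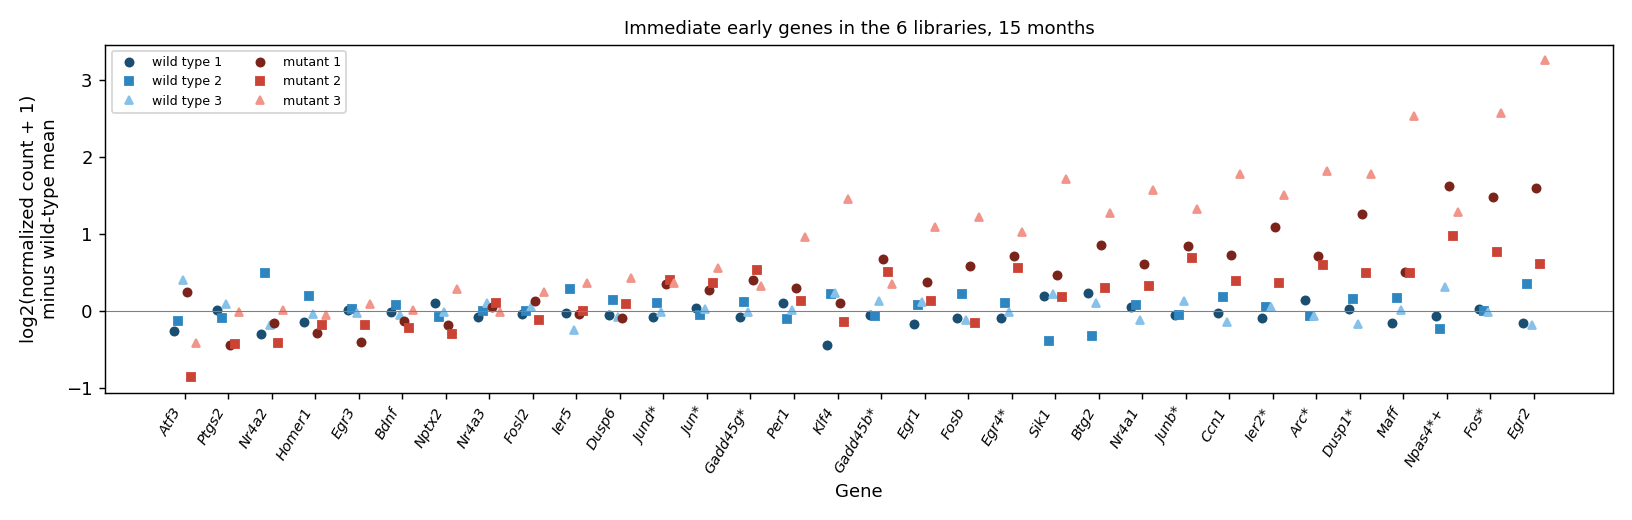
Log2(normalized count + 1) minus the wild type mean for the 32 immediate early genes, ordered by their change, 1 point per library; an asterisk marks an adjusted p under 0.05 as deposited and a plus sign one after correction. The points of mutant 3 are the highest for most of the genes on the right, while for Npas4 mutant 1 is the highest.

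To show letters that promoters of this list share, the 250 bases before the start of transcription are shown for Npas4, Fos and Dusp1 (RefSeq, GRCm38.p6, 5′ to 3′ on the gene's strand). They lie at chr19:4989972-4990221 (minus strand), chr12:85473640-85473889 (plus strand) and chr17:26508473-26508722 (minus strand). The start is RefSeq's, and for Npas4 and Dusp1 the window lies inside the wider span of the gene in GENCODE M21. Capitals mark the letters TGACG, the core of the cyclic AMP response element bound by CREB, on either strand, and the TATA box letters TATAAA.
Npas4: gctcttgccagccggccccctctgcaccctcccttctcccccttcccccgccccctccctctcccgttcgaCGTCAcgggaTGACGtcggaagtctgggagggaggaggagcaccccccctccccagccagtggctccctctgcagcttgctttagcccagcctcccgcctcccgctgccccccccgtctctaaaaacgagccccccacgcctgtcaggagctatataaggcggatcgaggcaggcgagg
Fos: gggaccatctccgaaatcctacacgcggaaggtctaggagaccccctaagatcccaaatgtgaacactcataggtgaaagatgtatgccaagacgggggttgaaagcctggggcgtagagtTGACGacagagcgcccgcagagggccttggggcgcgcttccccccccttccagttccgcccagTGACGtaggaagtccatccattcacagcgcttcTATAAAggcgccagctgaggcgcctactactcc
Dusp1: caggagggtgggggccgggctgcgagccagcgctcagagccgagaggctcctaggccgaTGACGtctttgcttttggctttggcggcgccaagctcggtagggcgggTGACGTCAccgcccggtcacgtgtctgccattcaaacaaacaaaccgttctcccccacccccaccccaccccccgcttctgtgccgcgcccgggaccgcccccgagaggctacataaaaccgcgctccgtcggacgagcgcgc

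The full element TGACGTCA, which contains TGACG on both strands, occurs in Dusp1, and only the core occurs in Npas4 and Fos. Of the 26 immediate early genes with such a window, 15 hold TGACG on either strand (57.7%), against 25.8% of 12189 promoters of tested genes and 17.9% of all 27025. Among the 9 of them called higher as deposited the share was near that of the whole list, at 5 (55.6%). The windows shown are among those that hold it, while Gadd45b, Gadd45g, Jun and Jund, also called higher, do not. The full element is in 2 of 26 (7.7%), against 2.7% of tested promoters, and TATAAA in 5 (19.2%), against 6.6%. The CArG box bound by serum response factor (letters CCWWWWWWGG, W being A or T) was found in 0 of 26 windows. It occurs in 1.1% of tested promoters, so its absence does not set these windows apart. Of the 12 oligodendrocyte markers 9 had a window, and 0 of these held TGACG. A match is a match of letters in a short window.

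Some genes of protein synthesis and energy supply rose in mutants as deposited, and fewer passed after correction. Of 85 cytosolic ribosomal protein genes 28 rose and 0 fell, with a median of 0.26, and 84 changes were positive. After correction 0 passed (limma; 25 at an unadjusted p under 0.05, all higher), the median was 0.11 and 80 were positive. Corrected medians against the wild type mean were 0.08, 0.05 and 0.25 in mutants 1, 2 and 3. Quantile normalization, another way of equating libraries, left 3 called. The median of the same list at 5 months was 0.29, and 0.33 after correction. Rpl36 of the large subunit, a transcript of 383 bases with a GC content of 60.8%, read 3948, 4381 and 4706 in the wild types against 5683, 5745 and 6169 in the mutants. Its change went from 0.44 ± 0.08 to 0.17 ± 0.11.

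Of 77 respiratory chain and ATP synthase genes 8 rose as deposited and 1 after correction, with medians of 0.21 and 0.07. Ndufb9 of complex I read 5693, 5814 and 5396 against 7168, 6829 and 6766, or 0.30 ± 0.06 (adjusted p = 0.039) and 0.08 ± 0.06 after correction. Uqcrc1, a core subunit of complex III, read 8697, 9260 and 9090 against 11287, 11021 and 10622, or 0.28 ± 0.06 (adjusted p = 0.041) and 0.18 ± 0.06. The mutants were above all wild types for both genes. Ndufs5, also of complex I, was picked out after its values were seen, with 3959, 2247 and 2155 against 4881, 2583 and 20.96; the last, from mutant 3, stands far below the rest. Mutant 3 also lowered the count of calls, since 37 of the 77 passed without it.

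Of 17 glycolytic genes 3 rose as deposited and 0 after correction (limma; 5 at an unadjusted p under 0.05), with medians of 0.19 and 0.08. Eno1, which encodes an enolase, had 29362, 40906 and 30739 against 51995, 48674 and 56715, or 0.65 ± 0.12 (adjusted p = 0.032) and 0.47 ± 0.11 after correction (adjusted p = 0.11). Of 37 proteasome subunits 4 rose, and Psmb7, of the catalytic core, kept an adjusted p of 0.038 after correction, or 0.22 with the protein-coding gene model described below. Of 78 mitochondrial ribosomal proteins 3 rose, and of 35 translation factors 2 rose and 1, the scaffold subunit Eif3a, fell (-0.37 ± 0.07, adjusted p = 0.034). Over all genes, 1.99% were higher and 4.03% lower.

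Some receptors and channels of neurons fell in mutants as deposited, and 1 of them, Kcna1, passed after correction. Of 23 glutamate receptor genes 5 fell and 1 rose, with a median of -0.32 that was -0.12 after correction. Grin2b, an NMDA receptor subunit with a transcript of 24060 bases, read 13900, 13445 and 14312 in the wild types against 9110, 10439 and 8213 in the mutants, a change of -0.59 ± 0.09 (adjusted p = 0.027), and -0.28 ± 0.08 after correction (adjusted p = 0.16). Gria2, the AMPA receptor subunit that limits calcium entry, with a GC content of 36.8%, read 11763, 11697 and 11800 against 7601, 9389 and 6595, or -0.60 ± 0.11 (adjusted p = 0.032) and -0.25 ± 0.08. Grik5, a kainate receptor subunit with a GC content of 61.7%, was the one that rose, by 0.33 ± 0.07 (adjusted p = 0.038), and was at 0.07 ± 0.06 after correction.

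Of 14 GABA receptor genes 3 fell as deposited, among them Gabrb2, a subunit of the main synaptic receptor (-0.39 ± 0.09, adjusted p = 0.043). Of 9 sodium channel genes 3 fell, Scn1a, Scn2a and Scn8a, the pore-forming subunits, by 0.27 to 0.49 on the log2 scale. After correction 0 genes of either list passed (limma, with 2 and 3 at an unadjusted p under 0.05, beside 2184 of all 15392 genes). The medians moved from -0.25 to -0.07 and from -0.27 to -0.15. Of 26 receptors for monoamines and acetylcholine 3 fell and 2 rose, led by the serotonin receptor Htr2a, which read 72.9, 63.4 and 68.3 against 14.0, 38.3 and 19.9 (-1.58 ± 0.37, adjusted p = 0.043).

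Of 35 potassium channel genes 6 fell and 1 rose as deposited, and Kcna1 passed after correction. Kcna1, a channel that damps firing at axons and terminals, read 4211, 4139 and 4162 in wild types, which lie close together, and 2886, 3132 and 2695 in mutants. Its change was -0.52 ± 0.07 (adjusted p = 0.025) and -0.48 ± 0.06 after correction (adjusted p = 0.031). Kcnma1, the large-conductance calcium-activated channel, changed by -0.89 ± 0.16 (adjusted p = 0.030) and -0.64 ± 0.15 (adjusted p = 0.11). Of 18 calcium channel genes 3 fell and 1 rose. Cacna1e, the R-type pore subunit, read 4583, 4197 and 4697 against 1630, 2416 and 1201, which is among the larger changes of the table at -1.42 ± 0.20 (adjusted p = 0.025), and it narrowly missed the threshold after correction at -1.21 ± 0.21 (adjusted p = 0.052).

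Synaptic scaffolds and adhesion molecules moved in both directions. Of 40, 5 rose and 7 fell, and the median changed sign with the correction, from -0.10 to 0.04. Homer2, a postsynaptic scaffold with a transcript of 10982 bases, read 1996, 2014 and 1956 against 1252, 1577 and 1300, or -0.54 ± 0.09 (adjusted p = 0.030) and -0.29 ± 0.07 after correction (adjusted p = 0.13). Lrfn4, an adhesion molecule of synapses with a GC content of 65.6%, rose by 0.39 ± 0.07 (adjusted p = 0.030) and was at 0.08 ± 0.07 after correction. Dlg4, which encodes PSD-95, read 44502, 43295 and 43912 in the wild types against 50536, 50998 and 47639 in the mutants. It passed after correction (0.41 ± 0.06, adjusted p = 0.036) and not as deposited (0.18 ± 0.07, adjusted p = 0.13). With the protein-coding gene model described below Dlg4 passed too (0.43, adjusted p = 0.042). It did not pass when the gene was represented by the mean over its transcripts (0.06), nor with a correction for GC content alone or length alone. Of 34 genes of vesicle release 3 fell as deposited, the active zone protein Pclo, the SNARE adaptor Napb and the synapsin Syn3. After correction 0 passed (limma, with 5 at an unadjusted p under 0.05, beside 2184 of all 15392 genes).

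Some genes of protein turnover and chromatin fell as deposited. Of 21 E3 ubiquitin ligases 11 fell and 0 rose, with a median of -0.36, beside 4.03% of all genes lower. Their median length was 9242 bases, against 3364 over all tested genes. Cbl, which tags receptor tyrosine kinases, read 391.3, 400.1 and 445.4 in the wild types against 134.3, 211.7 and 85.2 in the mutants, or -1.61 ± 0.27 (adjusted p = 0.030) and -1.41 ± 0.27 after correction (adjusted p = 0.067). Herc2, a giant ligase of DNA repair, read 5772, 5375 and 5207 against 3472, 4197 and 3312, or -0.58 ± 0.09 (adjusted p = 0.028) and -0.42 ± 0.10 (adjusted p = 0.12). Ube3a, the imprinted ligase lost in Angelman syndrome, changed by -0.55 ± 0.10 and by -0.21 ± 0.08 after correction. After correction 0 of the 21 passed (limma; 8 lower and 1 higher at an unadjusted p under 0.05), and the median was -0.16.

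Of 46 histone methyltransferases, demethylases and remodelers 12 fell as deposited and 0 after correction (limma; 14 lower and 3 higher at an unadjusted p under 0.05), with medians of -0.29 and -0.12. Kmt2a, a histone H3 methyltransferase, read 3503, 3553 and 3509 against 2280, 2659 and 2020, or -0.61 ± 0.10 (adjusted p = 0.028) and -0.45 ± 0.12 after correction (adjusted p = 0.13). Chd6, a remodeler ATPase, read 1676, 1562 and 1549 against 1179, 1097 and 950.3. It changed by -0.57 ± 0.09 (adjusted p = 0.028) and by -0.41 ± 0.11 after correction. Of 57 clustered protocadherins, adhesion molecules that give neurons a surface identity, 3 fell, led by Pcdhb2 (-1.53 ± 0.36, adjusted p = 0.045), and Pcdhgc4 rose (0.50 ± 0.12, adjusted p = 0.044). Of 33 SR proteins and splicing kinases 1 passed as deposited, the speckle protein Son (-0.38 ± 0.09, adjusted p = 0.047). The counts of protocadherins and splicing genes stand beside 4.03% of all genes lower and 1.99% higher.

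Genes tied to disease and signalling follow, beside 6.02% of all genes called as deposited. Of 30 Alzheimer's disease and amyloid genes 2 fell as deposited, with a median of -0.01 both before and after correction. Sorl1, a sorting receptor that keeps the amyloid precursor protein from being cut, read 9344, 8946 and 9363 in the wild types against 6897, 7328 and 6815 in the mutants, or -0.39 ± 0.06 (adjusted p = 0.028) and -0.29 ± 0.07 after correction (adjusted p = 0.11). Bace1, the beta-secretase, changed by -0.40 ± 0.09 (adjusted p = 0.038) and by -0.25 ± 0.07 (adjusted p = 0.17). Apoe, the lipid carrier made by astrocytes, read 104056, 103662 and 108681 against 127727, 128584 and 135801, a change of 0.31 ± 0.08 that did not pass (adjusted p = 0.052) and was 0.09 ± 0.08 after correction.

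Pink1, the kinase that marks damaged mitochondria, read 14971, 14559 and 15385 against 19272, 18599 and 20446. It rose by 0.38 ± 0.07 as deposited (adjusted p = 0.030) and was at 0.17 ± 0.06 after correction (adjusted p = 0.21), with a GC content of 59.0%. Of 41 Wnt pathway genes 2 rose (Wnt7b and Dvl1) and 3 fell (Apc, Fzd3 and Gsk3b), with medians of -0.01 and 0.02. Of 22 cholesterol synthesis genes Sc5d, a late desaturase, fell (-0.60 ± 0.09, adjusted p = 0.027) and was at -0.41 ± 0.08 after correction (adjusted p = 0.065). Of 23 heat shock and folding genes Hsph1 and Hspa4 fell, by 0.31 and 0.27 on the log2 scale.

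Some of the larger rises and falls as deposited lay outside these lists. Col6a1, a collagen chain of the meninges and vessels, read 864.8, 678.4 and 1330 against 2120, 1657 and 1849, or 1.02 ± 0.21 (adjusted p = 0.034). C1ra, a protease of the complement cascade, rose by 0.88 ± 0.20, Fxyd2, a regulator of the sodium pump, by 1.01 ± 0.25, and Megf6 and Dact2 each by 0.69. Itgb8, an integrin subunit that activates TGF-beta, read 175.3, 219.3 and 226.1 against 83.2, 110.8 and 59.6, or -1.32 ± 0.24 (adjusted p = 0.030). Rapgef5, an activator of Rap GTPases, fell by 1.37 and Lnpep, an aminopeptidase that travels with the glucose transporter of insulin-responsive cells, by 1.55 on the log2 scale. None of these 8 passed after correction, with adjusted p between 0.082 and 0.21. The noncoding transcripts 4930481A15Rik and Hectd2os rose by 1.33 and 0.75.

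The lincRNA 2900052N01Rik was, beside Npas4, the one gene that passed both ways with a rise of more than 0.8. It read 788.0, 749.9 and 889.2 in the wild types against 1295, 1451 and 1661 in the mutants, or 0.86 ± 0.11 as deposited and 0.91 ± 0.10 after correction (adjusted p 0.025 and 0.018), and it was higher in mutants at 5 months too (1.13, adjusted p = 0.041).

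The 19 genes called higher after correction depended on which transcript stood for the gene. The longest transcript was a protein-coding one for 7 of the 19 and for 27 of the 31 lower genes. For Atp5l, an ATP synthase subunit, the longest had 6310 bases and a retained intron, while the longest protein-coding one had 544. Its corrected change was 0.46 ± 0.05 (adjusted p = 0.018) with the first and 0.01 (adjusted p = 0.95) with the second, an alternative chosen after the data were seen. Mrpl13, a mitochondrial ribosomal protein, went from 0.50 to 0.09 and the antioxidant enzyme gene Sod1 from 0.37 to 0.06. With the protein-coding model 9 of the 19 still passed and 20 of the 31 lower ones. Npas4, 2900052N01Rik, Bcl11a, a transcription factor of cortical neurons, Emc7, of the membrane protein insertion complex, and Sf3b5, a splicing factor subunit, passed with this model and with the mean over a gene's transcripts as well. So did 17 lower genes, among them Tmem184b, Mobp, Mal, Cldn11, Cryab, Galnt6, Tspan2, Malat1, Oip5os1, Ppm1l, Hipk2, Mtmr9, Epha6, Kcna1, Dpp8 and Gm3893. Mog passed with the protein-coding model only. Trf, Fa2h, Adamts4, Gatm, Frrs1l, Zbed6 and B230209E15Rik passed with neither model.

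The lists of markers of other cell types held at most 2 calls each with all 6 libraries, beside 6.02% of all genes called as deposited. Of 12 astrocyte markers 0 passed either way (limma; 2 lower at an unadjusted p under 0.05 as deposited, 1 after correction), with a median of -0.10. Of 12 microglial markers the fractalkine receptor Cx3cr1 passed as deposited (-0.31 ± 0.08, adjusted p = 0.049). Of 12 interneuron markers Gad2, a GABA-synthesising enzyme, fell as deposited (-0.52 ± 0.11, adjusted p = 0.039) and was at -0.29 ± 0.09 after correction (adjusted p = 0.20). Of 14 markers of hippocampal excitatory neurons 1 passed, all 14 were detected in the table, and the median was 0.05. Of 11 endothelial and mural markers Cldn5, the claudin of the blood-brain barrier, rose as deposited (0.37 ± 0.08, adjusted p = 0.035); mutant 3 was above every wild type in all 11, and the list's median of 0.16 was -0.11 without it. Of the 12 markers of thalamus and striatum Rora and Pde10a fell as deposited (-0.65 ± 0.12 and -0.41 ± 0.10), with medians of -0.31 and -0.21. The choroid plexus list had a median of 0.75 with mutant 3 and -0.29 without it, and the blood list 0.60 and -0.71; with all libraries 0 members of either passed (limma; 0 at an unadjusted p under 0.05), and without mutant 3 1 choroid plexus and 4 blood markers passed, all lower.

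**Figure D5:**
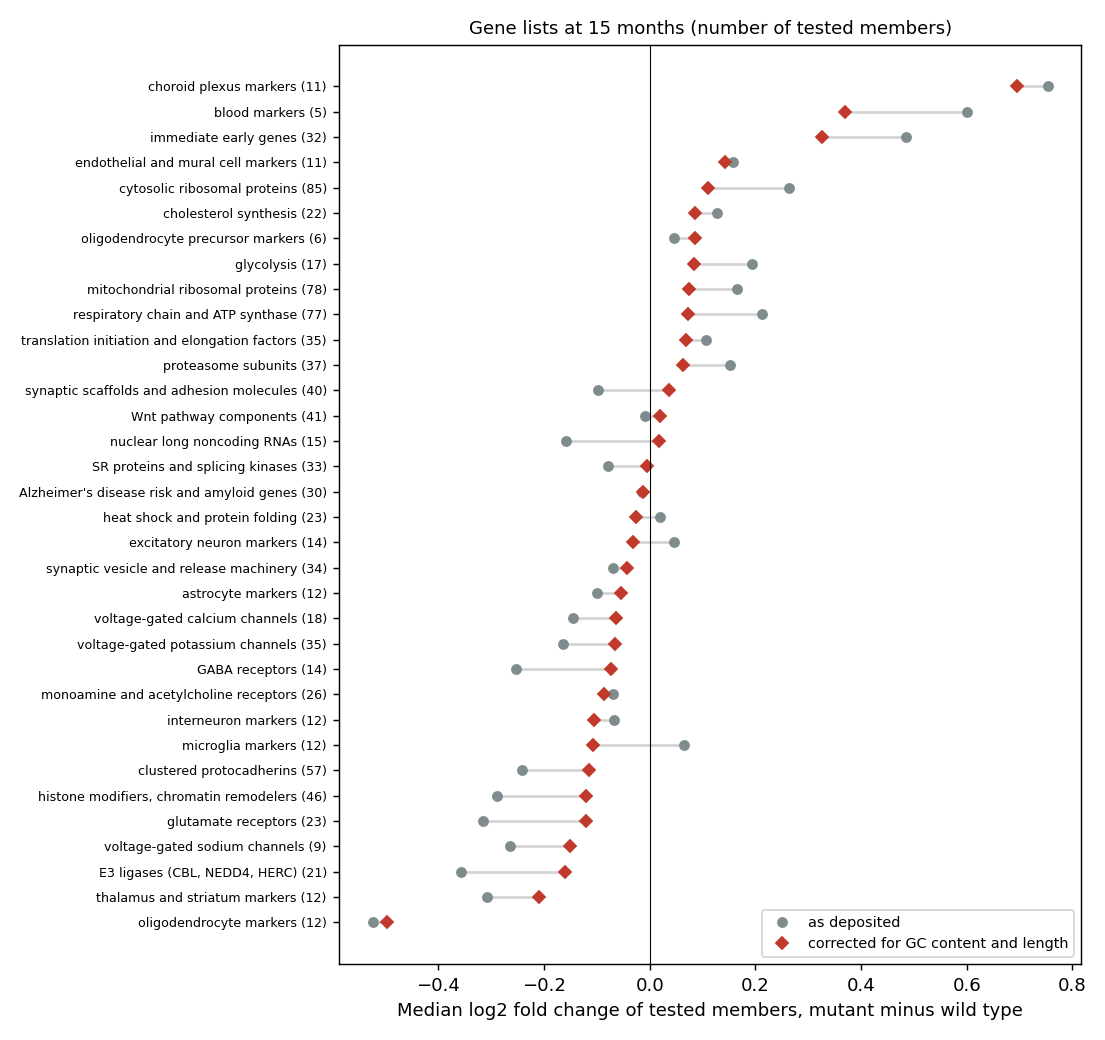
Median log2 fold change of the tested members of 34 gene lists (mutant minus wild type), as deposited (grey circles) and after correction (red diamonds), ordered by the corrected value; the number of members stands in parentheses. The oligodendrocyte list is lowest both ways at -0.52 and -0.50, and the lists of ribosomal, respiratory, glutamate receptor, GABA receptor and ligase genes move toward 0.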

How the data were processed

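Total RNA of hippocampi was sequenced as paired ends. Per the submitters' processing notes, reads were quantified with Salmon 0.11.1 against mm10 and normalized with DESeq2. The deposited signal is the authors' normalized count per gene, with each age in its own table. Whole reads could not be recovered, so no count test was run, and the files do not give the depth of each library. Groups and replicate numbers come from the sample labels.

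Values were put on the log2(normalized count + 1) scale and genes averaging under 10 were left out. A linear model per gene was fitted in limma 3.58.1 (R 4.3.3), its variances moderated by eBayes along a mean trend. Tests were two-sided and Benjamini-Hochberg adjusted across every gene tested, at 0.05. Fold changes are on that scale and understate changes of low genes. For the correction, a robust local linear surface (loess, span 0.3) of each library's deviation from the gene mean on GC content and log10 length of the longest GENCODE M21 transcript (GRCm38) was subtracted. Symbols matched for 24399 of 25025 genes, and 138 more matched by RefSeq synonym. The difference of genotype effects between ages is an interaction term over 13 libraries.

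The fits were tested on simulated data with known changes.

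Members and lists were chosen with earlier results of these data known, and lists of mitochondrially encoded transcripts had no member in the table. Named genes are Tmem184b, the 15 largest changes in each direction as deposited, the 15 largest in each direction after correction, list members by smallest p or by role, Apoe, Pink1 and sex-linked transcripts. Other settings tried were a pseudocount of 0.1 or 10, dropping the filter or raising it to 100, trimmed mean scaling, quantile normalization, robust hyperparameters, library weights, the replicate number as a block, each library left out, ribosomal or X and Y genes left out, an adjusted p under 0.01, GC content or length alone, a span of 0.6 and other gene models. The protein-coding gene model and list counts without each library were added after the data were seen. Promoter windows are RefSeq's. Some list members that enter the counts are not reported here by name. Behaviour and imaging were not analysed here. Python 3.11.15 and matplotlib 3.10.9 drew the plots.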

Additional observations from a re-analysis of the deposited data

Results flagged for a closer look

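Of the 227 genes named by rule, 35 had a genotype effect at 15 months that differed from the one at 5 months (limma interaction over 13 libraries, adjusted p under 0.05). Over all genes, 268 of 15340 (1.75%) did so. Many of the 227 were named for large changes or small p at 15 months, which by itself favours such differences and opposite signs. Of the 35, 34 had the opposite sign at the other age and 26 were also under 0.05 after correction. An opposite sign is not always a called change at 5 months. Npas4 passed there (limma, adjusted p = 0.036), while Fos (0.060) and Cbl (0.18) did not. The choroid plexus list had a median of -3.23 at 5 months, and its part in these differences was not tested. The values below are the effect at 15 months minus that at 5 months on the log2 scale. The age tables were normalized separately, sex is mixed with the groups, and no explanation was tested. Groups of 3 mice were not screened for single outlying samples.

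Immediate early genes made up most of the 12 positive differences. All 32 genes of that list were named by role, whatever their values. Most other lists gave only members with the smallest p, so this majority is partly set by the naming rule. The immediate early genes were Fos at 3.27, Ccn1 at 2.16, Dusp1 at 2.01, Npas4 at 2.01, Btg2 at 1.57, Junb at 1.55, Gadd45g at 1.48, Egr4 at 1.41 and Gadd45b at 0.93. The collagen gene Col6a1 was at 1.47, the noncoding Hectd2os at 1.42 and the splicing factor Srsf2 at 0.44.

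Among the 23 negative differences were long noncoding RNAs, Oip5os1 at -2.02 and Malat1 at -1.60. Genes of signalling and protein turnover were Cbl at -2.64, Hipk2 at -1.73, Ppm1l at -1.54, Mtmr9 at -1.28, Epha6 at -1.18, Garem1 at -1.03, Dpp8 at -1.21 and Prepl at -0.64. Genes of synapses, channels and adhesion were Pcdhb2 at -2.48, Homer2 at -0.91, Dlgap2 at -0.79, Kcnma1 at -1.38, Kcna1 at -0.63, Chrm3 at -0.72 and Dsp at -0.92. The rest were Sorl1 at -0.72, Bace1 at -0.49, Hsph1 at -0.50, Hspa4 at -0.36, Zfp382 at -0.69 and Gm3893 at -1.13. Gm3893 was the gene with one sign at both ages.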

How the results depend on the processing

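As deposited, 935 genes passed. The count was 578 with no filter, 2804 with library quality weights (0.38 for mutant 3), 1595 with the replicate number as a block, 50 with the correction and 2 at an adjusted p under 0.01; it lay between 1 and 1526 when 1 library was left out. After correction, 50 passed. That count was 78 at a mean of at least 100, 114 with robust hyperparameters, 225 with library weights, 11 with the replicate block, 281 for GC content alone, 26 with the mean over transcripts, 31 with the longest protein-coding transcript and 1 at an adjusted p under 0.01, and lay between 1 and 190 with 1 library left out (15 without mutant 1, 160 without mutant 2). For the difference between ages 268 passed, 3 with the replicate block, and between 34 and 552 with 1 library left out. The causes were not tested. The other alternatives moved these 3 counts by less than 1.5 times.

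Same-numbered mice are different animals, and their deviations correlated at 0.013, 0.074 and 0.164, so the numbers were not taken as pairs; under the block 123 of the 124 called named genes still passed. Quantile normalization turned the split as deposited to 177 higher and 654 lower. Of the 124, 38 passed after correction. Without mutant 3, Hba-a1 and Hba-a2 went from positive to called lower, at -0.55 and -0.60; over the leave-outs they ran up to 1.44 and 1.27. Trimmed mean scaling moved the median of all genes by under 0.01.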
